A study of Bos taurus with 23 samples.

Results

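CHD1, NFYA and MYC are chromatin and transcription factors that are often discussed as regulators of the first transcription from the embryo's own genome. They were followed here on bovine GeneChip arrays from the oocyte to the blastocyst. The members were chosen by symbol: every probe set, the group of short probes that reports 1 transcript, whose platform annotation reads CHD1, NFYA or MYC. This gave 4 probe sets of 24016 that are no controls, and 3 genes of the 9155 named by a single symbol. CHD1 had 2 probe sets, of which the brighter over all arrays is called the first, and NFYA and MYC had 1 each. All 4 passed the filter on dim probe sets, through the stages where they are high. The 3 genes were proposed with earlier results of these arrays known, so their levels below are a description without a test.

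The series holds 23 arrays of poly(A)+ RNA in 8 groups. There were 3 arrays of oocytes cultured in vitro and 3 of oocytes matured in vivo, drawn on day 0 from preovulatory follicles of 9 animals. The embryos were all derived in vivo from cows inseminated with semen of 1 Holstein-Friesian bull. Zygotes (3 arrays), 2-cell embryos (2), 4-cell embryos (2) and 8-cell embryos (4) came from oviduct flushes of 24 cows, made 1 to 4 days after insemination. The design text calls the last of these 8- to 16-cell embryos. Morulae (3 arrays) and blastocysts (3) came from uterine flushes of 7 animals on day 7 or 8. Each array of blastocysts took a pool of 5 embryos and each array of the other embryonic stages a pool of 10, and the labels give neither a pool size for oocytes nor the conditions of in vitro culture. Replicates are titled biological, with no word on donors shared between pools, so the tests measure the spread between pools.

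In cattle the early embryo lives on RNA that the oocyte stored, and the main activation of the embryonic genome falls around the 8-cell stage. CHD1 is a chromodomain ATPase that binds histone H3 methylated at lysine 4, travels with elongating RNA polymerase II and loads the replacement histone H3.3. NFYA is the sequence-reading subunit of NF-Y, a trimer with NFYB and NFYC that binds the CCAAT box of many promoters. MYC binds E-box DNA as a dimer with MAX and is known for driving genes of ribosome production, nucleotide synthesis and the cell cycle.

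Values are the deposited GCRMA levels in log2 units, in which a step of 1 is a doubling. A level of 4 was taken as the background limit, and values below it have no order. Where an array of the lower group lay below 4 it was set to 4, and the fold is then given as "at least". Levels are compared within a probe set only. A pool with fewer cells that carry a transcript and a pool with less of it per cell cannot be told apart on these arrays.

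CHD1 was below the background limit on each of the 13 arrays of oocytes, zygotes, 2-cell and 4-cell embryos by its first probe set, and was strongly present on each array thereafter. It read 2.99, 2.96 and 2.89 in the in vitro oocytes, 2.40, 3.05 and 2.92 in the in vivo oocytes and 2.49, 2.46 and 2.44 in the zygotes. It read 2.72 and 2.42 at the 2-cell stage and 2.91 and 2.59 at the 4-cell stage. The 4 arrays of 8-cell embryos read 11.91, 11.98, 11.96 and 12.11, the tightest of the 8-cell groups among the 4 probe sets. Morulae read 9.68, 10.10 and 9.92, and blastocysts 10.05, 10.43 and 9.90. The 8-cell mean of 11.99 ± 0.09 (SD, n = 4) was at least 254-fold above the 4-cell stage. It was 4.25-fold above the morula mean of 9.90 ± 0.21 (SD, n = 3) and 3.64-fold above the blastocyst mean of 10.12 ± 0.27 (SD, n = 3). All 8-cell arrays lay above all morulae and blastocysts, while those last groups overlapped and did not differ beyond their spread.

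NFYA was likewise below the limit up to the 4-cell stage and highest at the 8-cell stage, with a deeper drop after it than the first CHD1 probe set. Its in vitro oocytes read 2.92, 2.00 and 2.84, its in vivo oocytes 2.70, 3.83 and 2.73, and its zygotes 3.21, 2.72 and 2.83. The 2-cell arrays read 3.80 and 3.83 and the 4-cell arrays 3.31 and 3.3, still below the limit. The 8-cell arrays read 11.81, 12.14, 12.21 and 11.41, a mean of 11.89 ± 0.37 (SD, n = 4) that was at least 237-fold above the 4-cell stage. Morulae read 7.45, 8.06 and 7.66, and blastocysts 7.11, 7.50 and 7.51. The 8-cell mean was 18-fold above the morula and 22.9-fold above the blastocyst. Morulae and blastocysts again overlapped, with means of 7.72 ± 0.31 and 7.37 ± 0.23 (SD, n = 3 each).

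MYC was above the limit at the 8-cell stage, below it in the morula and above it again in the blastocyst. Oocytes and zygotes all read between 2.51 and 2.62. The 2-cell arrays read 4.55 and 2.52, and the 4-cell arrays 2.55 and 2.56. The 8-cell arrays read 10.01, 10.99, 11.35 and 9.73. Morulae read 2.61, 3.24 and 2.60, all below the limit, and blastocysts 7.15, 6.94 and 7.18. The 8-cell mean of 10.52 ± 0.77 (SD, n = 4) was at least 91.6-fold above both the 4-cell stage and the morula. The blastocyst mean of 7.09 ± 0.13 (SD, n = 3) was at least 8.51-fold above the morula, with no overlap, and the 8-cell mean was 10.8-fold above the blastocyst.

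The second probe set of CHD1 differed from the first. It was above the limit on all in vitro oocytes, at 4.39, 5.50 and 4.27, and on 1 of the 3 in vivo oocytes, which read 3.77, 3.90 and 4.10. Zygotes read 4.45, 4.81 and 5.11, 2-cell embryos 5.24 and 6.10, and 4-cell embryos 5.65 and 5.79. The 4-cell mean of 5.72 ± 0.10 (SD, n = 2) was thus at least 3.22-fold above the in vivo oocytes. The 8-cell arrays spread from 7.78 through 8.85 and 10.83 to 10.99. Their mean of 9.61 ± 1.56 (SD, n = 4) was 14.8-fold above the 4-cell stage. Morulae read 3.27, 6.19 and 5.39 and blastocysts 7.96, 4.32 and 5.14, so the lowest 8-cell array fell among the blastocysts. Morula array 1, at 3.27, had all 6 trophectoderm and epithelium markers above 4, against 3 and 4 on morula arrays 2 and 3. IFNT2 (9.32), TKDP1 (6.91), TFAP2A (6.63) and KRT8 (6.06) stood out on it, and the part of this difference in the CHD1 value was not tested. Both probe sets of CHD1 were highest at the 8-cell stage, but they disagreed on whether the transcript was seen before it and on how much of it lasted to the blastocyst. The annotation does not say which part or form of the CHD1 transcript each reads, and no probe or gene sequence was used here.

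**Figure D1:**
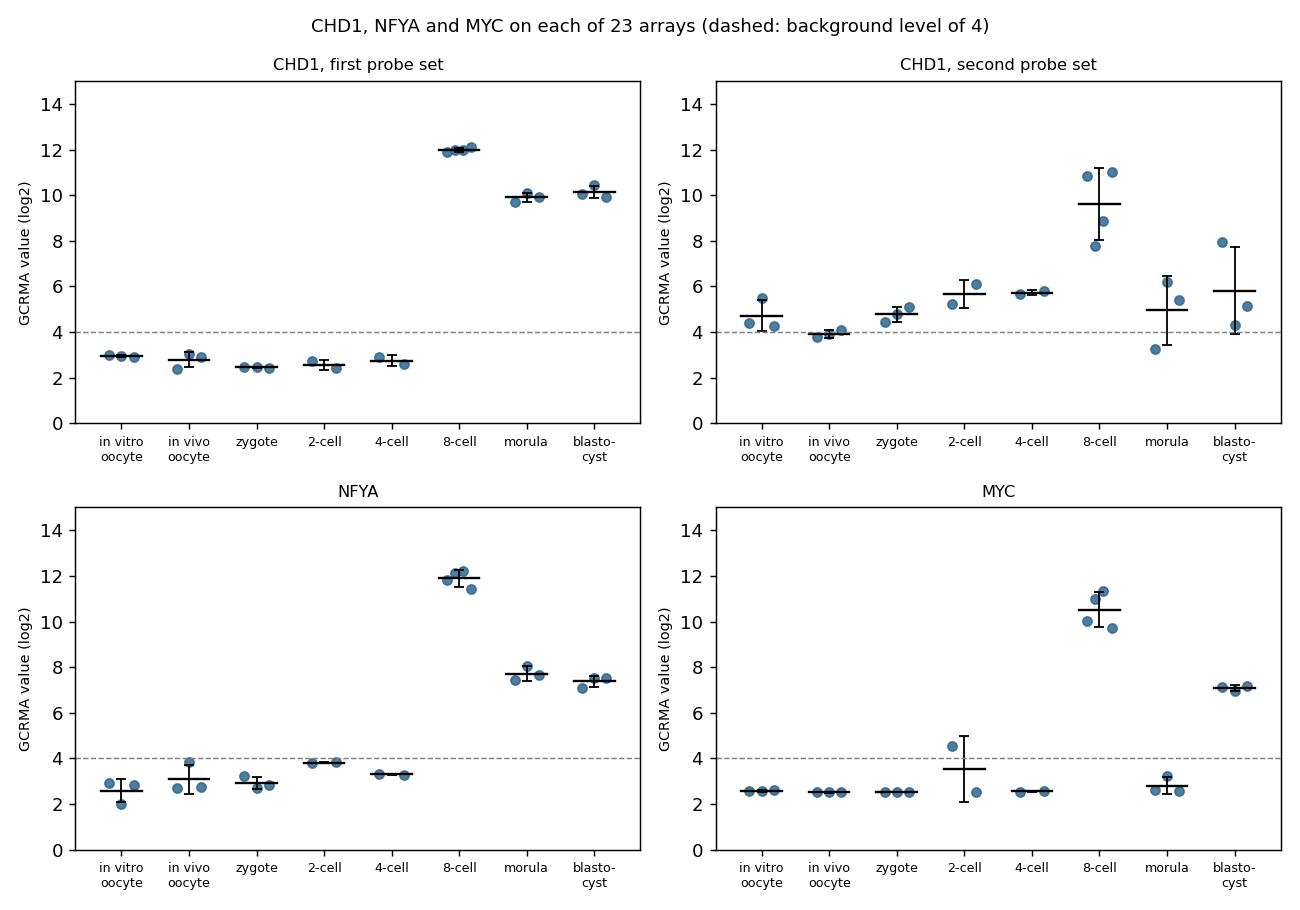
Level of the 4 probe sets of CHD1, NFYA and MYC (GCRMA value in log2 units, vertical axis) on each of the 23 arrays, by group (horizontal axis); points are arrays, the horizontal bar is the group mean, the whiskers are 1 SD and the dashed line is the background limit of 4. The 8-cell arrays are the highest in the first CHD1 probe set (11.91 to 12.11), NFYA (11.41 to 12.21) and MYC (9.73 to 11.35), MYC falls below the limit in all 3 morulae, and the second CHD1 probe set is spread within each of the last 3 stages.

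The order of stages was therefore 8-cell first for each of the 4 probe sets. For the first CHD1 probe set and NFYA, morula and blastocyst followed together and the 5 earlier groups lay below the limit, without order. For MYC the blastocyst followed alone. Among all 14571 probe sets tested, 3379 (23.2%) had their highest mean at the 8-cell stage, the most common stage, and 2718 (18.7%) had it in the in vitro oocyte. The members share this stage with many other probe sets.

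The differences between stages were also set on the log2 scale, with each array below 4 set to 4, so that they are lower bounds where an array was set. Between the 4-cell and 8-cell stages the bounds were 7.99 for CHD1, 7.89 for NFYA and 6.52 for MYC, while the second CHD1 probe set differed by a measured 3.89. Every 8-cell array lay above every 4-cell array in all 4 probe sets, as it did in 31.8% of all probe sets tested. From the 8-cell stage to the morula the measured differences were -2.09 for the first CHD1 probe set and -4.17 for NFYA. MYC was lower by at least 6.52 and the second CHD1 probe set by at least 4.42, so the place of CHD1 against NFYA in this step depends on the probe set. Every 8-cell array lay above every morula in all 4 probe sets, against 26.8% of all. From morula to blastocyst MYC was higher by at least 3.09, while the first CHD1 probe set and NFYA differed by 0.22 and -0.35. Every blastocyst array lay above every morula for MYC alone of the 4, and for 11.9% of all probe sets.

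**Figure D2:**
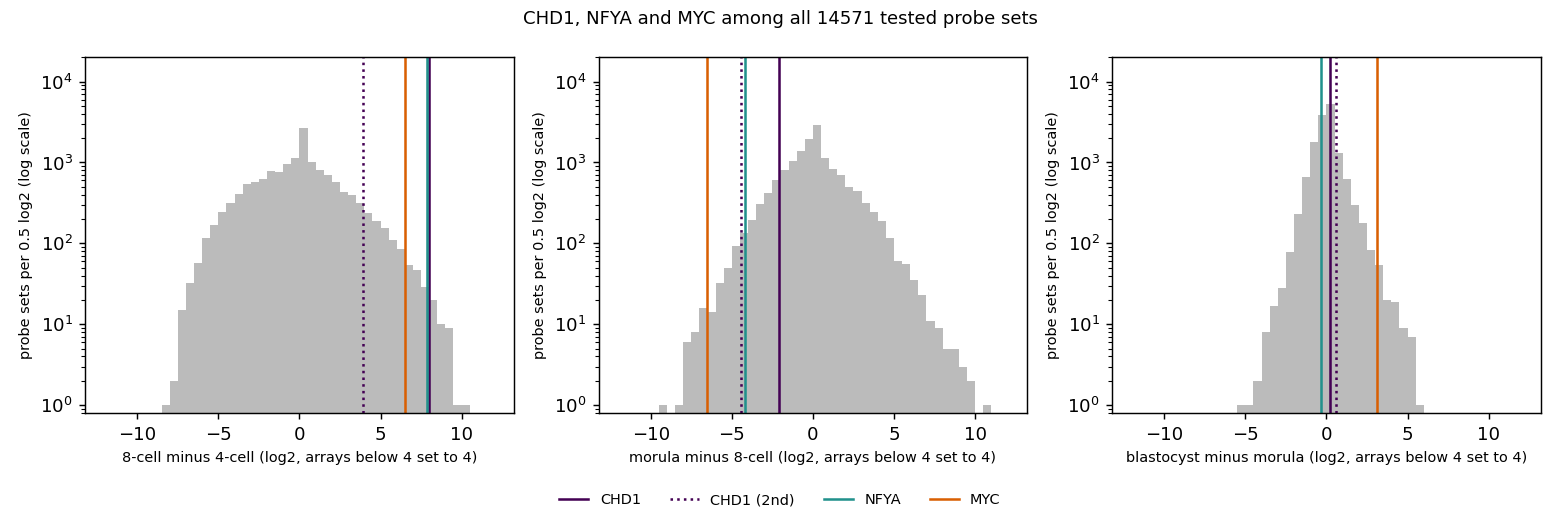
Number of probe sets (vertical axis, log scale, per 0.5 log2) by difference of group means (horizontal axis, log2, each array below 4 set to 4) for 8-cell minus 4-cell, morula minus 8-cell and blastocyst minus morula; grey bars are all 14571 tested probe sets and vertical lines the members, with the second CHD1 probe set dotted. A line is a lower bound where an array was set to 4: CHD1 (7.99), NFYA (7.89) and MYC (6.52) in the left panel, MYC and the second CHD1 probe set in the middle panel, and MYC (3.09) and the second CHD1 probe set in the right panel.

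The on and off patterns were counted over all probe sets after the members' values had been seen. CHD1 (first probe set) and NFYA were among 634 probe sets (4.35% of those tested) that lay below 4 on all 13 earlier arrays and above 4 on every 8-cell array. They were also among the 343 of these that stayed above 4 in every morula and blastocyst. MYC missed the first count through 2-cell array 1, at 4.55. With that array left out, 658 probe sets had the pattern, and 6 of these, 0.0412% of those tested, were below 4 in every morula and above 4 in every blastocyst. These 6 were MYC, PLA2G15, which encodes a lysosomal phospholipase, and 4 probe sets without a symbol. PLA2G15 had smaller swings, with means of 6.67 at the 8-cell stage, 3.25 in the morula and 5.09 in the blastocyst. A further 107 probe sets were on at the 8-cell stage and off in all morulae and blastocysts.

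The 2-cell array with the MYC signal differed from its only replicate in other ways too. Lactoferrin (LTF), a secretory gene of oviduct and uterine epithelium, read 13.86 on it and 2.41 on the other 2-cell array. The epithelial keratin KRT18 read 8.46, the leukocyte gene S100A12 read 8.06, the mucin MUC1 5.53 and TIMP1 5.22. Of the 6 oviduct and uterine markers on the array 2 were above 4, with a summed level of 13.87 against 5.27 on the other. Their part in the MYC value was not tested. The 4-cell array 1 carried 9 of 10 leukocyte markers above 4 (2 of 10 on the other 4-cell array), with a summed level of 13.73 against 6.90, and MYC read 2.55 there. LTF also stood out on 8-cell array 3 (10.94), where it was the only 1 of the 6 oviduct and uterine markers above 4. It stood out too on blastocyst array 1 (13.18), where 2 of the 6 were above 4, but MUC1 read 6.27 to 6.63 in all blastocysts. On that blastocyst array the second CHD1 probe set read 7.96, against 4.32 and 5.14 on the other blastocysts, and the part of oviduct or uterine RNA in it was not tested. On in vivo oocyte array 2, 8 of the 12 markers of cumulus and granulosa cells were above 4, among them HSD17B1 at 11.03 and INHA at 10.95. Without these 5 arrays the 8-cell mean was at least 256-fold (CHD1, first probe set), 221-fold (NFYA) and 75.6-fold (MYC) above the 4-cell stage. This leaves 1 4-cell array, and both were set to 4 here, so leaving out 4-cell array 1 could not move these bounds. Only the loss of 8-cell array 3 could, so the bounds do not show what the markers of other cells do to the members. Other oocyte arrays carried fewer such markers: TIMP1 (8.84), TNFAIP6 (6.06) and INHA (5.62) stood out on in vitro array 3, where 6 of 12 cumulus and granulosa markers were above 4, and CD52 (8.47), CD44 (5.19) and CD3E (5.13) on in vivo array 1.

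The oocyte and embryo labels were checked on their own markers. All 7 oocyte markers on the array were above 4 in every oocyte and early embryo up to the 8-cell stage. The oocyte growth factor GDF9 averaged 13.47 in 4-cell embryos, 7.08 in 8-cell embryos and 1.93 in blastocysts. OOEP ran otherwise, with means of 7.29 in morulae and 8.89 in blastocysts, and was the 1 oocyte marker above 4 on every blastocyst array. KRT18 averaged 15.59 in blastocysts, where all 6 markers of trophectoderm and epithelium were above 4 on every array. PTGS2 of that list was also high early, with means of 9.76 in in vitro oocytes and 8.54 in 4-cell embryos.

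The 8-cell group fell into pairs of arrays. Over all 24016 probe sets, arrays 1 and 4 correlated at 0.988 and arrays 2 and 3 at 0.974, while correlations across these pairs lay between 0.940 and 0.943. Within the other groups they lay between 0.948 and 0.994. Arrays 1 and 4 were the high ones for the second CHD1 probe set (10.83 and 10.99 against 7.78 and 8.85). They were the low ones for MYC (10.01 and 9.73 against 10.99 and 11.35) and for NFYA (11.81 and 11.41 against 12.14 and 12.21). The first CHD1 probe set did not follow this split. GDF9 was lower on arrays 1 and 4 (6.48 and 6.32) than on arrays 2 and 3 (7.77 and 7.76). KRT18 followed the split in the other direction, with 8.61 and 8.40 on arrays 1 and 4 and 2.37 and 2.15 on arrays 2 and 3. It was the 1 marker above 4 among the 6 of trophectoderm and epithelium on arrays 1 and 4, and their summed level was 8.71 and 8.51 there, against 5.06 and 5.25. Of the 6 oviduct and uterine markers only OVGP1 (3.01 to 7.96 over the group) and LTF passed 4 on any 8-cell array. LTF did so on array 3 alone and OVGP1 on arrays 1 and 4, where the summed level of the 6 was 8.13 and 7.81. The design text allows embryos of 8 to 16 cells in this group and does not say how the pools were composed, and the part of this or of the markers in the members' spread was not tested.

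Across the 23 arrays, which share the 8 stages, the first CHD1 probe set and NFYA had a Pearson correlation of 0.954. It was 0.974 over the 19 arrays that are not of the 8-cell stage. On 13 of these both lay below the limit, where values have no order. The 0.974 thus mainly sets those arrays against morulae and blastocysts, and does not show that the curves run together within them. MYC correlated with NFYA at 0.886 and with CHD1 at 0.802, and at 0.607 and 0.644 without the 8-cell arrays. The 2 probe sets of CHD1 correlated at 0.629, and at 0.231 without the 8-cell arrays. CHD1 was far from the closest match of NFYA: 89 other tested probe sets with 1 symbol were more alike to it, and 269 were more alike to CHD1 than NFYA was. Probe sets without a symbol or with several were not counted. These values describe how the curves run and say nothing of shared control.

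The genes whose curves were most like CHD1 over the 23 arrays were POLR1C at a correlation of 0.996, TYW3 and CTU1 at 0.996, and KRR1 and SLC30A6 at 0.995. POLR1C is a subunit of RNA polymerases I and III, TYW3 and CTU1 modify transfer RNA, KRR1 serves assembly of the small ribosomal subunit and SLC30A6 is a zinc transporter. POLR1C had group means of 2.76 at the 4-cell stage, 14.08 at the 8-cell stage, 12.45 in the morula and 12.08 in the blastocyst. The closest to NFYA were GART (0.988), SERF2 (0.988), NOL11 (0.985), RBM19 (0.984) and C3H1orf52 (0.983). GART encodes an enzyme of purine synthesis, and its means ran from 3.95 at the 4-cell stage to 12.88, 9.32 and 8.67 in the following stages. NOL11 and RBM19 act in ribosomal RNA processing. NOL11 differed from NFYA in its base level, with a mean of 9.52 already at the 4-cell stage.

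The closest to MYC were SLC13A4 (0.964), POLH (0.964), PLA2G15 (0.957), KPNA4 (0.957) and FMO5 (0.954). SLC13A4 is a sulfate transporter, POLH a DNA polymerase of damage tolerance and KPNA4 a nuclear import receptor. SLC13A4 read 2.38, 8.02, 2.44 and 5.54 on average from the 4-cell stage to the blastocyst, so its means dipped in the morula as those of MYC did. It was not among the 6 probe sets above that had the on and off pattern of MYC on every array counted. POLH kept more signal there, with means of 10.35, 4.99 and 6.50 from the 8-cell stage on.

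The genes around the members were read from 7 lists of partners, family members and known targets. Like the members, the lists were chosen with earlier results of these data known, so their shares below do not come from an independent choice. They hold 148 gene symbols, in which the H3.3 genes stand under both old and new symbols. Of these symbols 102 were on the array and 98 passed the filter on dim probe sets. Each was tested with limma in 4 comparisons, and a gene with an adjusted p under 0.05 is said to rise or fall. Between the 4-cell and 8-cell stages 37 of the 98 rose (37.8%) and 25 fell (25.5%), while of all 7081 genes tested 31.2% rose and 34.2% fell. From the 8-cell stage to the morula 16 rose (16.3%) and 44 fell (44.9%), against 30% and 28.4% of all genes; with the arrays centred on their hybridisation controls, the spiked-in control probe sets, the counts were 9 and 30. From morula to blastocyst limma found 0 risen and 7 fallen (7.14%; 0 and 23 at an unadjusted p under 0.05), against 5.75% and 3.77% of all genes. In the in vitro against the in vivo oocyte 1 was higher and 11 were lower (11.2%), against 0.72% and 11.7% of all genes. From the 8-cell stage to the morula the collection site, the donor animals and the day change together with the stage, and their effects cannot be told apart.

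NFYB and NFYC, the histone-fold subunits that NFYA needs to bind DNA, did not share its course. NFYB was high from the start, with means of 12.90 in in vitro oocytes, 12.63 in in vivo oocytes, 12.58 in zygotes and 12.18 at the 2-cell stage. It read 12.22 ± 0.11 (SD, n = 2) in 4-cell and 12.69 ± 0.21 (SD, n = 4) in 8-cell embryos. This rise of 0.46 on the log2 scale passed narrowly (limma adjusted p = 0.0444). It no longer passed with the arrays centred on hybridisation controls (adjusted p = 0.71), with the replicate block (0.105), or without 4-cell array 1 (0.225) or 2 (0.084), 8-cell array 1 (0.0617), 2 (0.0726) or 4 (0.106), or any of 6 arrays of other groups that only lend their spread (in vitro oocytes 1, 2 and 3, in vivo oocyte 3, zygote 2 and morula 2, between 0.0509 and 0.055). In the morula it fell 2.51-fold to 11.36 ± 0.14 (SD, n = 3; adjusted p = 1.77e-06), and it read 10.79 ± 0.08 (SD, n = 3) in the blastocyst.

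NFYC ran opposite to NFYA at genome activation by its brighter probe set. It averaged 12.52 and 12.23 in the oocytes, 12.18 in zygotes, 11.92 at the 2-cell and 11.91 ± 0.01 (SD, n = 2) at the 4-cell stage. The 8-cell arrays read 6.29, 8.61, 9.21 and 7.12, all below the 4-cell arrays. The fall was 17.2-fold, or 4.11 with a standard error of 0.56 on the log2 scale (limma adjusted p = 2.40e-06). The second NFYC probe set fell at least 5.30-fold in the same step (adjusted p = 0.00254, and 0.0527 with the spread taken from the compared groups alone), from 7.37 ± 0.32 (SD, n = 2) to 4.76 ± 1.39 (SD, n = 4), after climbing from means of 5.30 in in vivo oocytes to 7.46 in 2-cell embryos. Arrays 1 and 4 of the 8-cell group were the low ones for NFYC as they were for NFYA.

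After the 8-cell stage the first NFYC probe set averaged 9.08 ± 0.50 in the morula and 8.08 ± 0.58 in the blastocyst (SD, n = 3 each). The rise to the morula passed (limma adjusted p = 0.0327), but not without 8-cell array 1 (0.13), 8-cell array 4 (0.094) or morula array 2 (0.149). Nor did it pass with the replicate block (0.0857) or by the mean of both NFYC probe sets (0.122). The call was also lost with no filter on dim probe sets (0.0621), with control centring (0.0924) and with the spread taken from the compared groups alone (0.185). The second NFYC probe set did not pass in this step (adjusted p = 0.471). It fell at least 2.45-fold from the morula to the blastocyst (limma adjusted p = 0.0293). This call was lost without morula array 2 (0.09) or 3 (0.105) and without blastocyst array 1 (0.155) or 2 (0.0841). It was also lost with no filter on dim probe sets (0.0568), with control centring (0.087) and with the spread taken from the compared groups alone (0.081). The first did not pass in that step (0.302).

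**Figure D3:**
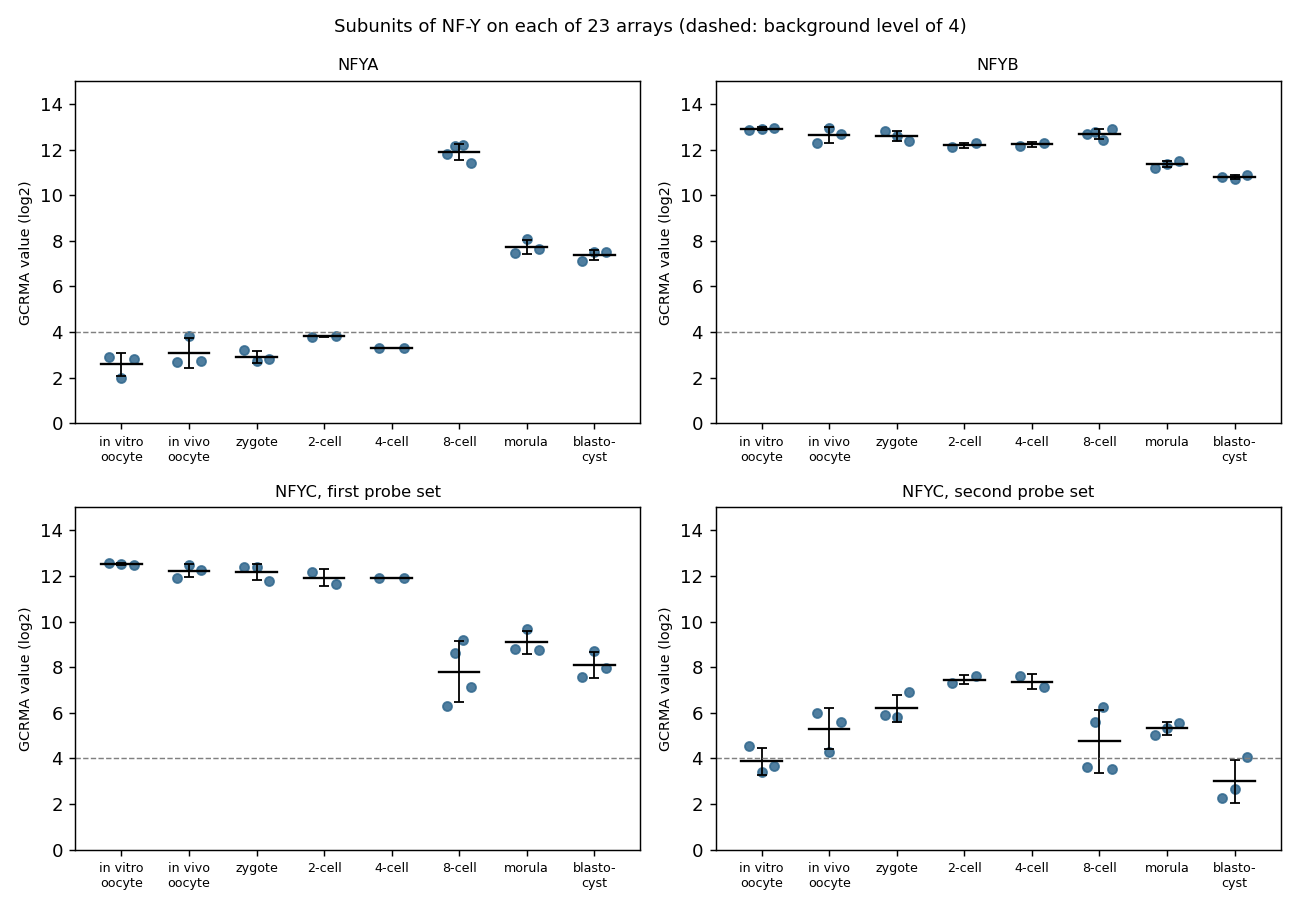
Level of NFYA, NFYB and both NFYC probe sets (GCRMA value in log2 units, vertical axis) on each of the 23 arrays by group (horizontal axis); points are arrays, bars are group means, whiskers are 1 SD and the dashed line is the background limit of 4. NFYA stands below 4 until the 4-cell stage and between 11.41 and 12.21 at the 8-cell stage, NFYB is above 10 in every group, and the first NFYC probe set drops from a mean of 11.91 at the 4-cell stage to 7.80 at the 8-cell stage.

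Among the 6 tested CCAAT factor partners, which include NFYB and NFYC, 1 rose and 3 fell from the 4-cell to the 8-cell stage. That is 16.7% and 50%, against 31.2% and 34.2% of all genes. The 2 other falls were those of DR1, at 10.3-fold (limma adjusted p = 2.87e-06), and DRAP1, at 4.96-fold (adjusted p = 3.01e-04). These encode the subunits of the repressor NC2, which are built on the same histone fold as NFYB and NFYC. POLE3 and POLE4, histone-fold subunits of DNA polymerase epsilon, changed by 0.04 and 0.27 and did not pass.

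The 11 tested genes with CCAAT boxes, mostly of the cell cycle, had 3 rises and 3 falls from the 4-cell to the 8-cell stage (27.3% each, near the 31.2% and 34.2% of all genes). The list's median change was -0.33, against -0.03 over all genes. CDK1, the mitotic kinase, rose 12.1-fold (limma adjusted p = 6.07e-05) and thymidine kinase TK1 7.32-fold (adjusted p = 2.61e-06). Cyclin CCNB2 fell 4.40-fold, the chaperone HSP90B1 5.86-fold and FDPS, of the mevalonate pathway, 10.5-fold. CCNA2 and CCNB1 changed by -0.27 and -0.33 and did not pass. In the next step, to the morula, 4 fell and 1 rose (36.4% and 9.09%, against 28.4% and 30% of all genes). CDK1 fell 6.27-fold, CCNA2 4.22-fold and CCNB1 3.16-fold (limma adjusted p = 4.99e-04, 2.38e-06 and 5.31e-08).

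MAX, the partner without which MYC does not bind E-boxes, was hardly detected by its 1 probe set. Its mean was below 4 in 7 of the 8 groups. At the 8-cell stage it read 2.58, 2.69, 5.78 and 5.69, a mean of 4.19 ± 1.79 (SD, n = 4), and the rise from the 4-cell stage did not pass (limma adjusted p = 0.0819). It passed without 8-cell array 1 (0.0104) or array 2 (0.0137). Unlike NFYA and MYC, MAX was low on arrays 1 and 2 and high on arrays 3 and 4. Its fall from the 8-cell stage to the morula passed (limma adjusted p = 0.0335), but has no exact size, as the morulae lie below the limit. The call was lost with no filter on dim probe sets (0.0616), with control centring (0.0664) and with the replicate block (0.129). It was also lost with the spread taken from the compared groups alone (0.193) and without morula array 1 (0.0724), 2 (0.0727) or 3 (0.0724).

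Of the 17 tested genes of the MYC network and its cofactors, 7 rose and 3 fell from the 4-cell to the 8-cell stage. That is 41.2% and 17.6%, against 31.2% and 34.2% of all genes. The median change was 0.92 against -0.03 over all genes. MGA, which pairs with MAX in place of MYC, rose at least 126-fold (limma adjusted p = 3.12e-11), from a mean of 4.06 to 11.07. HUWE1, a ubiquitin ligase that acts on MYC, rose at least 43.7-fold (adjusted p = 8.55e-10), and MLXIP, a glucose-sensing factor of the network, at least 3.87-fold (adjusted p = 1.14e-07). The cofactor ATPase RUVBL1 rose 15.6-fold and the scaffold TRRAP 4.09-fold. MXI1, a MAX partner that opposes MYC, fell 14.3-fold (adjusted p = 1.39e-07).

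From the 8-cell stage to the morula MYC itself went below the limit. In this step 8 of these 17 fell, MAX among them, and 3 rose. That is 47.1% and 17.6%, against 28.4% and 30% of all genes. The kinase PIM1 fell 16.7-fold (limma adjusted p = 6.90e-07), MXI1 at least 8.42-fold and the ubiquitin ligase adaptor FBXW7 4.09-fold. MLX, the partner of MLXIP, rose 6.73-fold (adjusted p = 3.39e-05).

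The 22 tested MYC targets had a median change of 1.01 from the 4-cell to the 8-cell stage, with 10 risen and 4 fallen. That is 45.5% and 18.2%, against 31.2% and 34.2% of all genes. CAD, of pyrimidine synthesis, rose at least 107-fold (limma adjusted p = 5.44e-12) and had means of 2.51 and 10.74. The nucleolar protein NOP56 rose 12.4-fold (adjusted p = 2.38e-07), the cyclin-dependent kinase CDK4 at least 21.7-fold (adjusted p = 1.17e-04), fibrillarin (FBL) 9.84-fold and nucleolin (NCL) 4.92-fold. POLR1B, a subunit of RNA polymerase I, fell 4.92-fold (adjusted p = 1.37e-07). LDHA, of lactate formation, fell 16.3-fold by its brightest probe set (adjusted p = 1.47e-04), but not by the mean of its probe sets (0.663). Ornithine decarboxylase ODC1, which read 15.02 on average in 8-cell embryos, changed by -0.06 and did not pass.

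In the morula, with MYC below the limit, the same 22 targets had 9 falls and 6 rises (40.9% and 27.3%, against 28.4% and 30% of all genes). Their median change was -0.17, against 0.03 over all genes. CAD fell 7.17-fold (limma adjusted p = 2.96e-06) and the folate enzyme SHMT1 at least 7.14-fold. Cyclin CCND2 rose at least 54.8-fold (adjusted p = 1.52e-05), the spermidine synthase SRM 9.47-fold and NME2 8.84-fold. FBL differed by -0.02 and did not pass. In the blastocyst, where MYC was above the limit again, limma found 0 of the 22 risen and 1 fallen (4.55%), and 0 and 2 at an unadjusted p under 0.05. Of all genes 5.75% rose and 3.77% fell in this step.

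The other CHD and ISWI remodellers were tested as the family of CHD1. Of 8 tested, 5 rose and 2 fell from the 4-cell to the 8-cell stage (62.5% and 25%, against 31.2% and 34.2% of all genes). The median change was 2.54. CHD1L rose 36.7-fold (limma adjusted p = 3.77e-08), CHD8 19.7-fold (adjusted p = 8.45e-09), CHD2, the closest relative of CHD1, 11.1-fold (adjusted p = 1.35e-07) and CHD4, of the NuRD complex, 4.32-fold. The ISWI ATPase SMARCA1 fell at least 2.22-fold (adjusted p = 0.00994, and 0.111 without 4-cell array 2). To the morula limma found 5 of the 8 fallen (62.5%) and 0 risen (6 and 0 at an unadjusted p under 0.05). Of all genes 28.4% fell and 30% rose in this step. CHD2 fell 4.40-fold, CHD8 3.53-fold, CHD1L 3.39-fold and CHD4 2.84-fold. In the same step the first CHD1 probe set was 4.25-fold lower and the second at least 21.4-fold lower.

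Genes that work with CHD1 in elongation, H3.3 loading and methylation of H3 lysine 4 gave 5 rises and 7 falls among 19 tested at genome activation (26.3% and 36.8%, near the 31.2% and 34.2% of all genes). SUPT4H1 and SUPT6H, elongation factors of the SPT family, rose 68.4-fold and 19.2-fold (limma adjusted p = 4.88e-09 and 3.28e-06). LEO1, a subunit of the PAF1 complex, fell 24.8-fold (adjusted p = 1.42e-08), the corepressor NCOR1 9.52-fold and the elongation factor TCEA1 4.29-fold. The other PAF1 complex subunits were unlike LEO1: CTR9 rose 2.54-fold (adjusted p = 2.11e-04, but 0.0569 with the arrays centred on hybridisation controls and 0.0709 by the mean of its probe sets), and PAF1, CDC73 and RTF1 did not pass. To the morula 11 of the 19 fell and 1 rose (57.9% and 5.26%, against 28.4% and 30% of all genes). The largest falls were in the H3 chaperone ASF1B, at 9.74-fold (adjusted p = 1.64e-08), SUPT6H, at 4.74-fold, and CDC73, at 4.15-fold. The median change of these 19 was -1.09, against 0.03 over all genes.

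Other factors linked to genome activation gave 6 rises and 3 falls among 15 tested from the 4-cell to the 8-cell stage. That is 40% and 20%, against 31.2% and 34.2% of all genes. TEAD4, a factor of the trophectoderm, rose at least 28.3-fold (limma adjusted p = 7.24e-13), KLF5 16.3-fold and KLF4 5.47-fold. EIF1AX, a translation factor used as a sign of bovine genome activation, rose 4.14-fold (adjusted p = 1.56e-08). SMARCA2 fell 5.63-fold and the acetyltransferase CREBBP 2.76-fold. POU5F1 and SOX2 changed by -0.53 and -0.78 and did not pass in this step. POU5F1 rose 22.2-fold in the next, to the morula (adjusted p = 4.55e-08), where the TATA-binding protein TBP fell 2.62-fold (adjusted p = 7.08e-06).

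**Figure D4:**
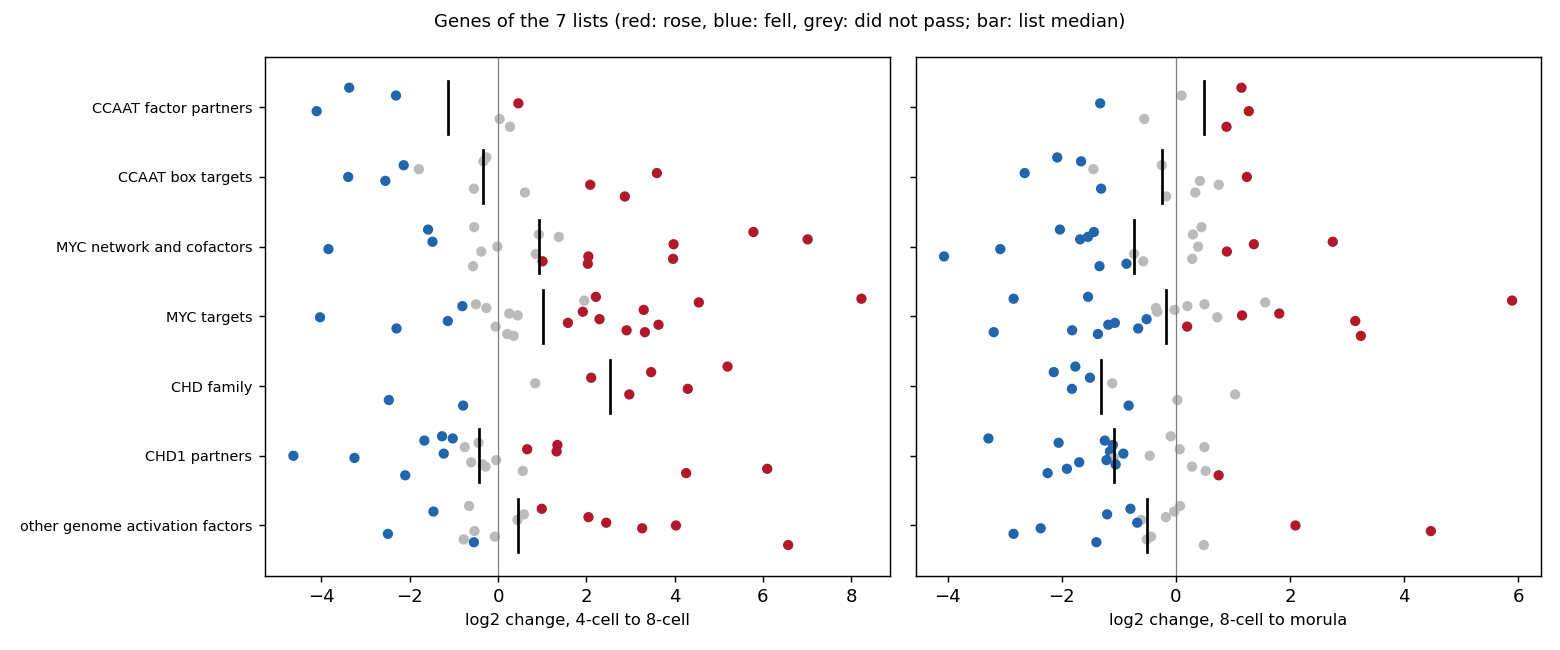
Change of each tested gene of the 7 lists (horizontal axis, log2 difference of group means) from the 4-cell to the 8-cell stage (left) and from the 8-cell stage to the morula (right), by list (vertical axis); red points rose, blue points fell, grey points did not pass limma's test, and the black bar is the list's median. The CHD family has the highest median on the left (2.54) and the lowest on the right (-1.31).

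From morula to blastocyst, where MYC came back above the limit, 7 of the 98 list genes fell (7.14%, against 3.77% of all genes). CCNB1 fell 2.09-fold (limma adjusted p = 4.60e-04) and the histone gene H3-3B 1.68-fold (adjusted p = 0.00635). The count was 2 without morula array 2 or blastocyst array 1, 3 without morula array 3, 4 without blastocyst array 3 and 12 without in vivo oocyte array 2. It was 0 with the arrays centred on hybridisation controls, where limma found 11 at an unadjusted p under 0.05, and 0 with the spread taken from the compared groups alone (30).

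In oocytes the first CHD1 probe set, NFYA and MYC lay below the limit on all 6 arrays, so culture and follicle cannot be set in order for them. The second CHD1 probe set averaged 4.72 ± 0.68 in vitro (SD, n = 3), at least 1.61-fold above the in vivo oocytes. Of those only 1 of 3 arrays was above the limit, at 4.10, and the lowest in vitro array was close to it at 4.27. Of the list genes that were lower in vitro, RUVBL1 was 4.70-fold lower (limma adjusted p = 9.39e-04), GNL3, a nucleolar protein, 5.43-fold (adjusted p = 0.00388) and FBL 4.81-fold (adjusted p = 0.00437). Of the 22 MYC targets limma found 5 lower and 0 higher (8 and 2 at an unadjusted p under 0.05), and of the 17 network genes 4 and 0 (5 and 1). The lower ones made up 22.7% and 23.5% of these lists, while of all genes 11.7% were lower in vitro and 0.72% higher. With the spread taken from the oocyte arrays alone, limma called 0 of the 98, with 28 at an unadjusted p under 0.05. The 12 calls over the 7 lists became 5 without in vivo oocyte array 1, 6 without in vitro oocyte array 1, 7 without in vivo oocyte array 3 and 26 without in vivo oocyte array 2. The last is the array with 8 of 12 cumulus and granulosa markers above 4; without it and the 4 later-stage arrays named above for markers of other cells the count was 28. In vitro array 3 and in vivo array 1, which carried the fewer markers given above, were kept in that count, and without in vitro array 3 alone it was 9.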

How the data were processed

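Expression was measured on 23 GeneChip arrays. The values deposited by the authors are log2 levels, made with GCRMA (2.0.0 per the submitters' processing notes), whose quantile step makes levels relative to the other transcripts of an array. No value was transformed again. Of 24128 probe sets 112 controls were left out. Of the rest, 13292 carry 1 platform symbol, 86 several and 10638 none. By Entrez ID, 13263 matched a RefSeq table and 0 symbols changed. The files name no genome build, so no positions are given. Array medians lay between 3.28 and 3.60, and the number of arrays limits the precision.

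Probe sets above 4 on at least 2 arrays were tested (14571, reading 7081 genes by their brightest probe set), which all 4 members passed through the stages where they are high. limma 3.58.1 in R 4.3.3 fitted a mean for each of the 8 groups with a shared spread (15 residual degrees of freedom, eBayes with trend), two-sided, with Benjamini-Hochberg adjustment over all probe sets within each of 4 comparisons. The script was tested on simulated data. Members and lists were chosen with earlier results of these data known. Genes named are the members, NFYB, NFYC and MAX, for each list and comparison up to 3 of the largest rises and 3 of the largest falls that passed without overlap of arrays, and the 5 genes most like each member. Other list genes were named after their values were seen. Same-numbered arrays were not taken as pairs, since 1 of 11 such pairs deviated together (correlation above 0.1). No 2 arrays held identical values. Alternatives changed the filter, the centring, the choice of probe set, the variance model, the block and the arrays included.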

Additional observations from a re-analysis of the deposited data

Results flagged for a closer look

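FBXW7, which targets MYC for degradation, had 1 distant 8-cell array among its 4: array 2 read 8.34 on the log2 scale and the nearest other array 9.80. Among 64 probe sets checked in this way it was the only one past the critical value for groups of 4. Chance gives about 1 in 20, which is more than 1 among 64, so this hit is not taken as a trait of FBXW7. From the 4-cell stage it fell by 1.58 on the log2 scale (limma adjusted p = 0.0074), a call that was lost without 4-cell array 2 (0.107).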

How the results depend on the processing

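Of 98 list genes, 12 (in vitro against in vivo oocyte), 62 (4-cell to 8-cell), 60 (8-cell to morula) and 7 (morula to blastocyst) passed. Centring the arrays on 18 hybridisation controls, which shifts the median of all genes by -0.26 from the 4-cell to the 8-cell stage and by -0.14 between oocytes, left 5, 55, 39 and 0. Median centring shifted the 4-cell to 8-cell change by -0.12. With the spread taken from the compared groups alone, limma called 0 in the first and last comparison (28 and 30 at an unadjusted p under 0.05). Leaving out 1 array gave 5 to 26, 52 to 66, 48 to 61 and 2 to 12. Without the 5 arrays that carried markers of other cells, an alternative chosen after seeing the data, the counts were 28, 59, 62 and 2. The replicate block gave 11, 58, 54 and 9, all within 1.5 times of the counts without it; same-numbered arrays deviated together in 1 of 11 pairs.

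With control centring the fitted CHD1 difference between the 4-cell and 8-cell stages was 8.97, which has no exact size, as the 4-cell arrays lie below background. By the mean of both its probe sets, with no array set to 4, the difference was 6.56 to the 8-cell stage, -3.37 to the morula and 0.54 to the blastocyst. The second probe set alone differed by 3.89, -4.66 and 0.85 in this way. These sizes are likewise not exact where an array lies below background. With such arrays set to 4, the last 2 values of the second probe set were -4.42 and 0.61, as lower bounds. MYC in in vitro minus in vivo oocytes, below background in both, was -0.0041 with median and -0.0918 with control centring. NFYC between oocytes turned to -0.563 by the mean of its probe sets, MAX between oocytes to -0.0532 with control centring, and MAX from morula to blastocyst lay between -0.0406 and 0.0210 with 1 array left out; none of these passed in any setting. Of 91 changes of single genes under 2900 alternative values, 2674 kept direction and call, 216 lost the call, 6 gained it and 4 reversed; 54 changes kept both throughout.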
